A study of Tachysurus vachellii and Tachysurus fulvidraco x Tachysurus vachelli and Tachysurus fulvidraco with 9 samples.

Results

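miR-24 and miR-27 are microRNAs, short RNAs that pair with messenger RNAs through their seed (bases 2 to 8) and lower the output of those messengers. In vertebrates their precursors lie next to that of miR-23 in clusters that are transcribed together, and a precursor can release a mature RNA from either of its arms, usually far more from one than from the other. In mammals miR-27 represses regulators of lipid metabolism such as PPARG and GPAM, miR-24 targets Insig1, a brake on sterol synthesis, in mouse liver, and the cluster is also known from endothelial cells, where it acts in vessel growth in mice.

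The 4 sequences described here are the entries of the authors' table named ipu-miR-24_1ss23GT, ipu-mir-24-3-p5, dre-miR-27b-3p_R-1 and tni-miR-27e_R-1_1ss19AT, chosen by name from 728 distinct mature sequences in 888 entries. Each of them stood on a single entry, and all 4 passed the filter on low values, with 278 sequences in all. They were measured by small RNA sequencing of juvenile liver in 9 libraries, 3 for each of 3 lines. The lines were both parental species, P. vachelli and P. fulvidraco, and their cross Huangyou-1 (called the hybrid), which had P. fulvidraco mothers and P. vachelli fathers. Each line came from artificial fertilization after hormone injection of the parents and was reared in 3 aquaria, with no other treatment and no engineered allele in the labels. What a library was made from, a single fish, several fish or a whole aquarium, is not in the labels, so p-values measure only the spread between these libraries. The question of the study's title is heterosis, and the comparisons ask where the hybrid lies relative to its parents.

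The mature sequences are shown first because several of them are told apart by single bases. They are as deposited by the authors, in DNA letters from 5′ to 3′, with the seed in capitals.
ipu-miR-24_1ss23GT: tGGCTCAGttcagcaggaacagt
ssa-miR-24b-3p_1ss17AG: tGGCTCAGttcagcaggaaccg
ipu-mir-24-3-p5: tGCCTACTgagctgattacagt
ssa-miR-24b-5p: tGCCTACTgagctgataacagt
dre-miR-27b-3p_R-1: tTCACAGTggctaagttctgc
tni-miR-27e_R-1_1ss19AT: tTCACAGTggctaagttctgt
cgr-miR-27a-3p_R+1_1ss19CT: tTCACAGTggctaagttctgct
dre-miR-27b-5p_R-1: aGAGCTTAgctgattggtgaac
pma-miR-23b_R-1: aTCACATTgccagggattacca

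The 3 sequences of the miR-27 3′ arm share the seed TCACAGT and their first 20 bases. Counted from the 5′ end, dre-miR-27b-3p_R-1 and tni-miR-27e_R-1_1ss19AT differ by C21T, their last base, and cgr-miR-27a-3p_R+1_1ss19CT is dre-miR-27b-3p_R-1 with 1 further base. ipu-miR-24_1ss23GT shares the seed GGCTCAG and its first 20 bases with both miR-24b sequences of the 3′ arm, from which it differs by A21C. ipu-mir-24-3-p5 carries another seed, GCCTACT, and differs from ssa-miR-24b-5p by T17A. No sequence of the table outside the families had the seed of a member, and the seed of pma-miR-23b_R-1, TCACATT, was on that sequence alone. How reads that fit several of these near-identical sequences were assigned is not given in the sources used here. In 0 of 9 libraries did the value of tni-miR-27e_R-1_1ss19AT fall within 0.1 of a whole number of reads, whereas that of ipu-mir-24-3-p5 did in 9 of 9. It did in 2 of 9 for dre-miR-27b-3p_R-1, 3 of 9 for ipu-miR-24_1ss23GT and 1 of 9 for cgr-miR-27a-3p_R+1_1ss19CT. The levels of all of these but ipu-mir-24-3-p5 may therefore hold divided reads.

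The values are the authors' normalized read counts. Over all 888 entries, repeated sequences included, reads were estimated at 5737729 to 8578985 a library. Reads outside the entries are not in that estimate. The sum over distinct sequences was 6994970 to 7650641 in P. vachelli, 5652171 to 5996601 in hybrids and 5678167 to 6254120 in P. fulvidraco. Because P. vachelli libraries had the larger sums, every comparison with them was also made with the libraries scaled to equal totals. The liver label was matched by its defining microRNA, since ssa-miR-122-5p of hepatocytes was the most abundant sequence in every library, with 30.7% to 36.3% of the sum. Each group is summarised as mean ± SD over n = 3 libraries. Fold changes are on the log2(value + 1) scale from limma fitted to all 278 sequences, with Benjamini-Hochberg adjusted p over all of them.

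The miR-27 3′ arm was higher in P. vachelli livers than in the other lines. dre-miR-27b-3p_R-1, by far its most abundant form, stood at 24863, 28309 and 25281 in the P. vachelli libraries, at 14996, 15502 and 17539 in hybrids, and at 14775, 16334 and 15581 in P. fulvidraco. All 3 P. vachelli libraries lay above the other 6, and hybrid and P. fulvidraco libraries overlapped. The means were 26151 ± 1880 in P. vachelli, 16012 ± 1346 in hybrids and 15563 ± 779 in P. fulvidraco. It was the 31st to 34th most abundant sequence of the P. vachelli libraries and the 37th to 39th of the others. It made up 95.9% to 96.5% of the sum of the 3 miR-27 3′ arm sequences in any library.

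tni-miR-27e_R-1_1ss19AT, with another last base, was far rarer and was spread further between the lines. Whether it comes from a gene of its own or is an end variant of miR-27b was not tested, since no locus was checked. Its values were 225, 306 and 287 in P. vachelli, 113, 125 and 131 in hybrids, and 110, 115 and 83.7 in P. fulvidraco. Again the P. vachelli libraries stood apart from all others, and the hybrid overlapped with P. fulvidraco, where library 3 was lowest. The means were 273 ± 42.2, 123 ± 9.05 and 103.05 ± 16.9.

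ipu-miR-24_1ss23GT, the abundant form of the miR-24 3′ arm, was also highest in P. vachelli, by a smaller margin. It read 7833, 8850 and 6768 in P. vachelli, 5465, 4841 and 6666 in hybrids, and 5795, 6376 and 6248 in P. fulvidraco. The lowest P. vachelli library lay just above the highest hybrid library, and the hybrid libraries reached both below and above those of P. fulvidraco. The means were 7817 ± 1041, 5657 ± 928 and 6140 ± 305.

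ipu-mir-24-3-p5, by its name from the 5′ side of a miR-24 precursor, was the least abundant of the 4. It stood at 91.4, 123 and 94.9 in P. vachelli, 97.7, 74.9 and 95.98 in hybrids, and 74.4, 51.4 and 59.1 in P. fulvidraco. These values correspond to about 52.0 to 137 reads a library. Here P. fulvidraco was the low line and the hybrid overlapped with P. vachelli, unlike the miR-27 sequences. The gap between hybrid library 2 and P. fulvidraco library 1 was less than the value of 1 read, so that these groups were separate only narrowly. The means were 103.1 ± 17.4, 89.5 ± 12.7 and 61.6 ± 11.7.

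**Figure D1:**
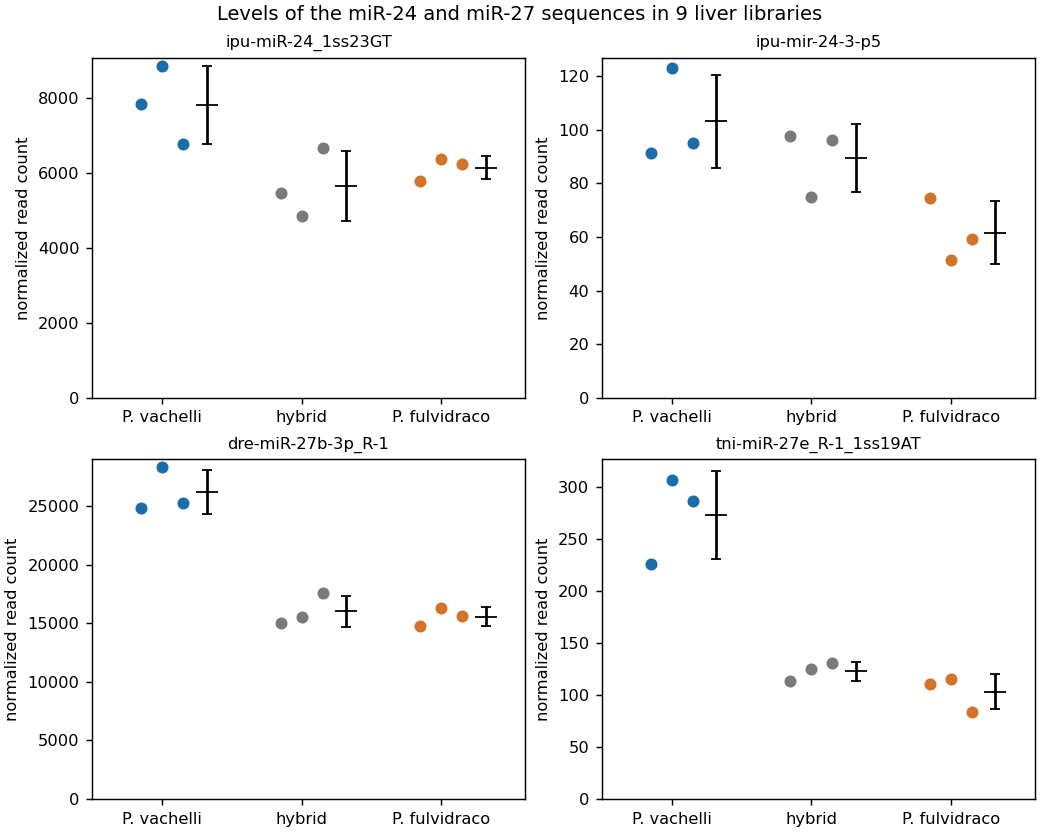
Normalized read count (y axis, from 0) of the 4 sequences in each library, by line (x axis). Points are libraries and the bar beside them is the mean ± SD of n = 3. For dre-miR-27b-3p_R-1 and tni-miR-27e_R-1_1ss19AT the P. vachelli points lie above all others, and for ipu-mir-24-3-p5 the P. fulvidraco points are lowest, with means of 103.1, 89.5 and 61.6 from left to right.

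Between the parental species, 3 of the 4 sequences were called higher in P. vachelli, where 30.9% of all sequences tested were. The median log2 fold change was 0.74 over the 4 and -0.05 over all sequences. tni-miR-27e_R-1_1ss19AT differed by a log2 fold change of 1.40 (SE 0.18, adjusted p = 0.000185), a 2.63-fold difference. dre-miR-27b-3p_R-1 differed by 0.75 (SE 0.10, adjusted p = 0.000193), and its call and that of miR-27e were kept with each library left out. ipu-mir-24-3-p5 differed by 0.74 (SE 0.21, adjusted p = 0.0142), but the call was lost without P. vachelli library 2 (adjusted p = 0.0613) or P. fulvidraco library 2 (0.0576). ipu-miR-24_1ss23GT gave 0.34 (SE 0.14, adjusted p = 0.0732) and was not called, although it passed without P. vachelli library 3 (0.0407) or hybrid library 3 (0.0489). The libraries of the 2 species did not overlap for any of the 4, against 59.4% of all sequences tested.

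The calls of miR-27b and miR-27e did not depend on the scaling, and that of ipu-mir-24-3-p5 did. With equal totals dre-miR-27b-3p_R-1 gave 0.44 (adjusted p = 0.00896) and tni-miR-27e_R-1_1ss19AT 1.10 (adjusted p = 0.00146), while ipu-mir-24-3-p5 gave 0.44 (adjusted p = 0.108). With equal totals 18.6% of all sequences tested were called higher in P. vachelli. Equal totals moved the median of all sequences to -0.35. Scaling shifts all log2 values of a library almost alike. Differences relative to that median are therefore kept by construction and say nothing on which scaling is right.

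The hybrid had lower levels of miR-27b and miR-27e than its paternal species, and less firmly of ipu-miR-24_1ss23GT. Compared with P. vachelli, 3 of the 4 sequences were called lower, against 19.4% of all sequences tested, and for the same number the libraries did not overlap (46.8% of all). The median log2 fold change was -0.59 over the 4 and -0.01 over all sequences. tni-miR-27e_R-1_1ss19AT fell by 1.14 (SE 0.18, adjusted p = 0.000959), which is 2.20-fold. dre-miR-27b-3p_R-1 fell by 0.71 (SE 0.10, adjusted p = 0.000443), which is 1.63-fold. Both calls were kept with each library left out and with equal totals, where the log2 fold changes were -0.79 (adjusted p = 0.0133) and -0.36 (adjusted p = 0.0327) and 9.32% of all sequences tested were called lower.

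ipu-miR-24_1ss23GT was called at a log2 fold change of -0.47 (SE 0.14, adjusted p = 0.0294), less firmly. That call was lost with equal totals (-0.12, adjusted p = 0.555), and without P. vachelli library 1 (adjusted p = 0.06) or 2 (0.123), or hybrid library 1 (0.0736) or 2 (0.105). ipu-mir-24-3-p5 was not called, at -0.20 (95% interval -0.66 to 0.26, adjusted p = 0.48), and its sign turned with equal totals, to 0.14. The median of all sequences went to 0.34 with equal totals.

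Against its maternal species the hybrid showed no called difference in the 4 sequences by limma, where 19.4% of all sequences tested were called. The smallest adjusted p was that of ipu-mir-24-3-p5, higher in the hybrid libraries by 0.54 on the log2 scale (95% interval 0.08 to 1.001, adjusted p = 0.0967). It was also the 1 member whose libraries did not overlap, against 36.3% of all. For dre-miR-27b-3p_R-1 the log2 fold change was 0.04, with a 95% interval of -0.18 to 0.26. The interval for tni-miR-27e_R-1_1ss19AT, -0.15 to 0.67 around 0.26, was wider, and that of ipu-miR-24_1ss23GT ran from -0.45 to 0.19 around -0.13. A miR-27b difference of the size seen between the species lies outside its interval, which does not show that the lines are equal.

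Set on the distance from P. fulvidraco (0%) to P. vachelli (100%) on the log2 scale, the hybrid stood at 5.21% for dre-miR-27b-3p_R-1 and 18.7% for tni-miR-27e_R-1_1ss19AT. With equal totals these positions were 18.5% and 27.8%. It stood at 73.0% for ipu-mir-24-3-p5 with the deposited scaling, but with equal totals at 132.7%, above the P. vachelli mean. With equal totals limma called neither the distance between the parents (adjusted p = 0.108) nor the hybrid against P. vachelli (adjusted p = 0.624) for this sequence. For ipu-miR-24_1ss23GT the hybrid mean was outside the parental range, at -38.0% (-225% with equal totals), but the distance between the parents was itself not called there. Against the mid-parent, that is the log2 level midway between the parental means, 1 of the 4 was called lower, dre-miR-27b-3p_R-1 at -0.33 (SE 0.09, adjusted p = 0.0278), against 8.63% of all sequences tested. tni-miR-27e_R-1_1ss19AT gave -0.44 (adjusted p = 0.0791), ipu-miR-24_1ss23GT -0.30 (adjusted p = 0.118) and ipu-mir-24-3-p5 0.17 (adjusted p = 0.527). The miR-27b call was lost with equal totals (-0.14, adjusted p = 0.345) and without P. vachelli library 2 (adjusted p = 0.0625), hybrid library 1 (0.0687) or 2 (0.101), and when P. fulvidraco library 2 (0.062) or 3 (0.0568) was left out. The comparisons share libraries, so their values stand side by side and are not independent.

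**Figure D2:**
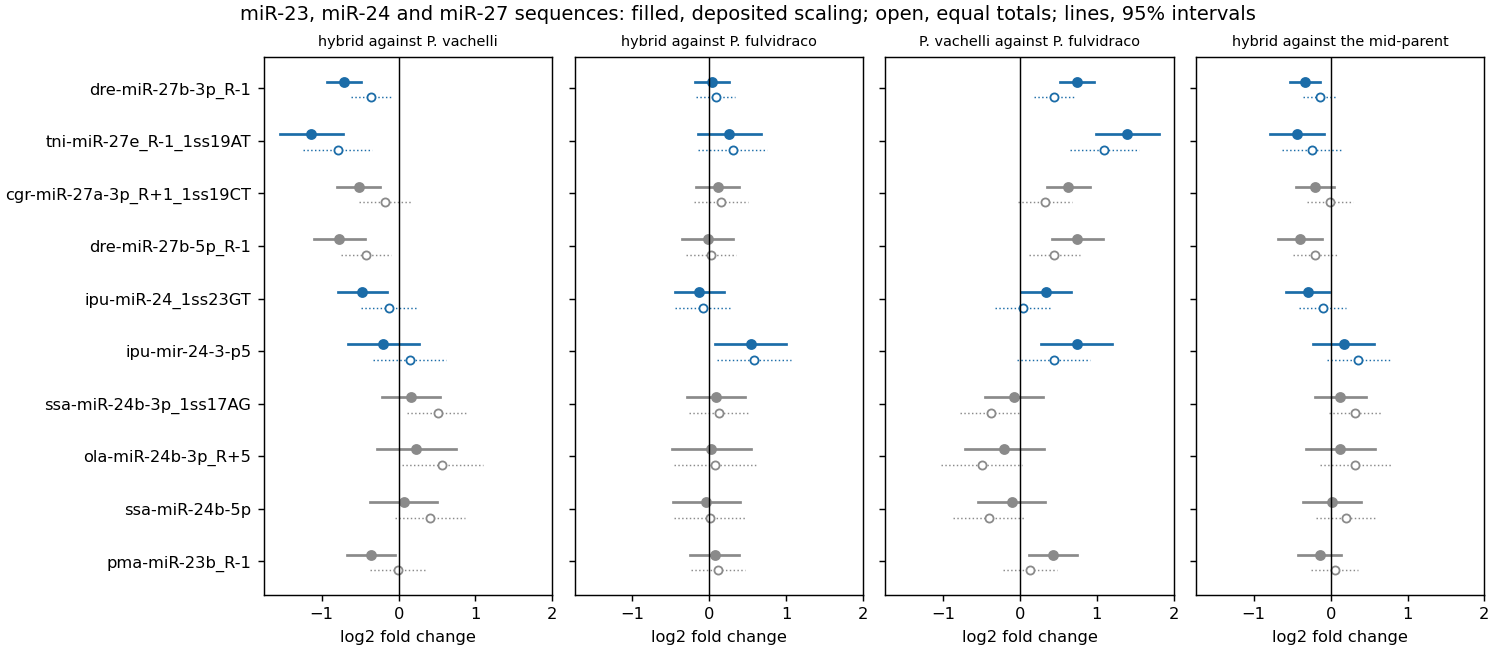
Log2 fold change (x axis) of the 10 tested miR-23, miR-24 and miR-27 sequences (y axis) in the 4 comparisons, with 95% intervals. Blue marks the 4 sequences described, grey their relatives. Filled points use the deposited scaling and open points equal totals. The miR-27 sequences sit left of 0 for the hybrid against P. vachelli and right of 0 between the parents under both scalings, ipu-mir-24-3-p5 crosses 0 between the scalings in the first panel, and near 0 in the second panel are 9 of the 10, from -0.13 to 0.26 with the deposited scaling.

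Ratios taken within a library do not depend on its scaling, and all 3 that were tested differed between the lines. tni-miR-27e_R-1_1ss19AT amounted to 0.906%, 1.08% and 1.13% of dre-miR-27b-3p_R-1 in P. vachelli, 0.754%, 0.803% and 0.746% in hybrids, and 0.748%, 0.704% and 0.537% in P. fulvidraco. The P. vachelli share was above all others, so the deposited level of the sequence ending in T differed between the species by more than that ending in C. Whether reads divided between near-identical sequences enter this ratio, or those given next, was not tested. By the exact permutation test of the F statistic over 1680 assignments of libraries to lines, p was 0.00714, and 0.0161 adjusted over the 3 ratios. The smallest p this design allows is 0.00357. Without P. fulvidraco library 3 the adjusted p of the exact test was 0.0536.

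miR-24 and miR-27b, which share a cluster in other vertebrates, also did not keep one ratio. Whether these entries come from one cluster in these fish was not tested. ipu-miR-24_1ss23GT amounted to 31.5%, 31.3% and 26.8% of dre-miR-27b-3p_R-1 in P. vachelli, 36.4%, 31.2% and 38.0% in hybrids, and 39.2%, 39.0% and 40.1% in P. fulvidraco. The parental species were separate and the hybrid overlapped with P. vachelli (exact permutation p = 0.0107, adjusted p = 0.0161). That call was lost without P. vachelli library 2 (adjusted p of the exact test 0.0643) or 3 (0.0696), or P. fulvidraco library 2 (0.0536) or 3 (0.0536).

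The ratio of the miR-24 members, by name from opposite arms, gave the weakest of the 3 tests. ipu-miR-24_1ss23GT exceeded ipu-mir-24-3-p5 by 85.7-fold, 71.9-fold and 71.3-fold in P. vachelli, 55.9-fold, 64.6-fold and 69.4-fold in hybrids, and 77.9-fold, 124-fold and 106-fold in P. fulvidraco. The hybrid libraries had the lowest ratios, all below those of either parent (exact permutation p = 0.0393, adjusted p = 0.0393). The adjusted p of the exact test passed 0.05 without any single hybrid library (0.0821, 0.075 and 0.075 for libraries 1, 2 and 3), without P. vachelli library 2 or 3 (0.0786 each), and without P. fulvidraco library 2 (0.075) or 3 (0.0571). The name ipu-mir-24-3-p5 points to a precursor mir-24-3, but the name ipu-miR-24_1ss23GT gives no precursor number. That both come from the same precursor is therefore an assumption, which was not checked. Nor does the ratio stand for whole arms. ipu-mir-24-3-p5 was 51.3% to 53.0% of the summed 5′ arm in P. vachelli, 46.8% to 50.8% in hybrids and 34.2% to 49.4% in P. fulvidraco. With arms summed (chosen after seeing the data), log2 fold changes between the species were 0.32 (3′) and 0.34 (5′). For the hybrid against P. fulvidraco they were -0.12 and 0.21. A ratio of summed arms was not tested.

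**Figure D3:**
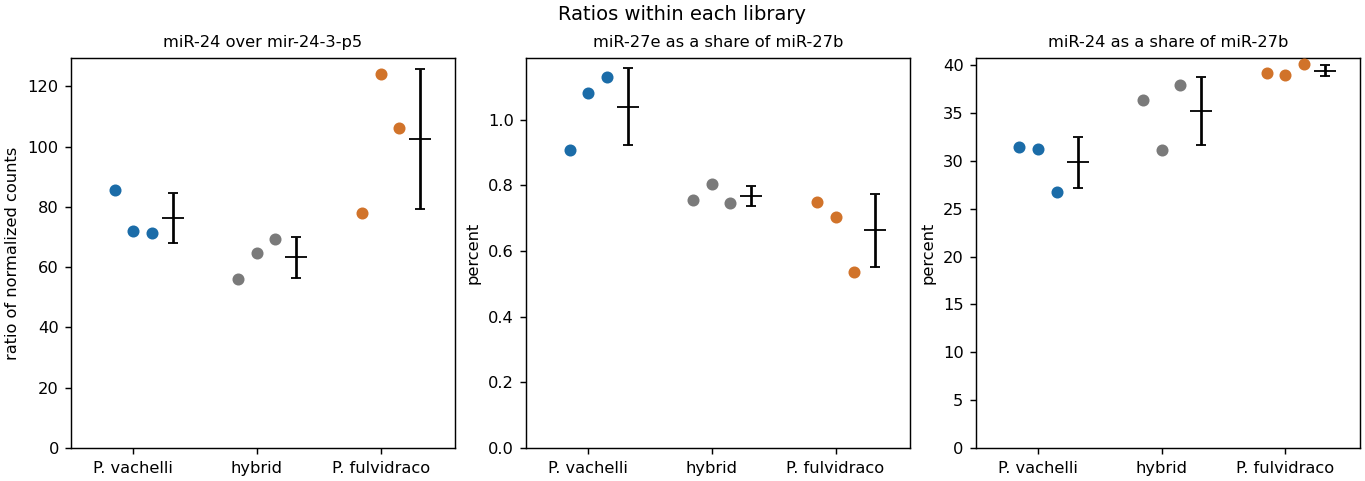
Ratios of 2 sequences within each library (y axis, from 0) by line (x axis): miR-24 over ipu-mir-24-3-p5, miR-27e as a percentage of miR-27b, and miR-24 as a percentage of miR-27b. Points are libraries and bars the mean ± SD of n = 3. The miR-27e share averages 1.04% in P. vachelli against 0.768% in hybrids and 0.663% in P. fulvidraco. The ratio of miR-24 over ipu-mir-24-3-p5 is lowest in the hybrid, at 63.3 ± 6.85.

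The table held 8 further sequences of miR-23, miR-24 and miR-27, of which 6 were tested. dre-miR-27b-5p_R-1, the opposite arm of miR-27b, stood at 453 ± 1.89 in P. vachelli, 268 ± 46.7 in hybrids and 269 ± 9.91 in P. fulvidraco, with log2 fold changes of 0.75 between the species (adjusted p = 0.00223) and -0.77 for the hybrid against P. vachelli (adjusted p = 0.00292). Both calls were kept with equal totals (adjusted p = 0.0277 and 0.0427). The ratio of the arms of miR-27b was 57.7 ± 3.98, 60.4 ± 5.75 and 57.8 ± 3.37 in the 3 lines, with overlap between all of them and no test made. cgr-miR-27a-3p_R+1_1ss19CT, with 1 base more than miR-27b, was at 763 ± 79.2, 530 ± 1.66 and 493 ± 35.1, called between the species (0.63, adjusted p = 0.00234) and for the hybrid against P. vachelli (-0.52, adjusted p = 0.00958), and both calls were lost with equal totals (0.33, adjusted p = 0.0999, and -0.17, adjusted p = 0.39). Unlike miR-27e, it was a smaller share of miR-27b in P. vachelli, at 2.91% ± 0.0974, than in the other lines. The share was 3.33% ± 0.269 in the hybrid and 3.16% ± 0.107 in P. fulvidraco. The highest P. vachelli share, 3.01%, lay only just below the lowest of the hybrid (3.03%) and of P. fulvidraco (3.05%). This ratio was not tested, nor was whether divided reads enter it. cgr-miR-27a-5p_R-1 was at or below 3.87 in every library, and at 0 in all 3 of P. fulvidraco.

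The miR-24b sequences, which differ from the members by 1 base in the aligned part, gave 0 calls among the 3 tested in the 4 comparisons by limma, also 0 at an unadjusted p under 0.05. Of all sequences tested, 15.5% were called higher and 19.4% lower in hybrids than in P. vachelli. Between the species 30.9% were called higher and 20.5% lower in P. vachelli. For the hybrid against P. fulvidraco 19.4% were called, and against the mid-parent 10.1% above and 8.63% below. With only 3 sequences, 0 calls does not set them apart from all sequences. With equal totals ssa-miR-24b-3p_1ss17AG was called higher in the hybrid than in P. vachelli (0.51, adjusted p = 0.043), as 31.5% of all were. ssa-miR-24b-3p_1ss17AG averaged 270 ± 8.20 in P. vachelli, 305 ± 37.0 in hybrids and 289 ± 53.2 in P. fulvidraco, with a log2 fold change of 0.17 for the hybrid against P. vachelli (95% interval -0.21 to 0.54). ssa-miR-24b-5p averaged 83.4 ± 11.1, 87.1 ± 7.48 and 90.6 ± 17.6. The form ola-miR-24b-3p_R+5 averaged 77.1 ± 5.68, 90.5 ± 7.81 and 91.5 ± 26.6. ipu-miR-24_1ss23GT was 28.9 ± 3.30 times ssa-miR-24b-3p_1ss17AG in P. vachelli and 18.5 ± 0.809 times in the hybrid, whose libraries did not overlap, and 21.6 ± 3.32 times in P. fulvidraco. On the 5′ side, ipu-mir-24-3-p5 was 1.23 ± 0.0679 times ssa-miR-24b-5p in P. vachelli, 1.03 ± 0.0843 times in hybrids and 0.714 ± 0.281 times in P. fulvidraco. In P. fulvidraco this ratio was 1.04 in library 1 and 0.547 and 0.557 in the other libraries. The longer ola-miR-24b-5p_L+2R-1 was below the filter and not tested, at 13.4, 13.9 and 8.30 in P. vachelli, 0.48, 5.42 and 6.36 in hybrids, and 4.65, 4.94 and 2.31 in P. fulvidraco. Its P. vachelli libraries lay above the other 6. These ratios were chosen after the table had been seen and were not tested.

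pma-miR-23b_R-1, the third family of the cluster and in human cells a repressor of glutaminase, stood at 11536 ± 1544 in P. vachelli, 9024 ± 1540 in hybrids and 8513 ± 376 in P. fulvidraco. It was called between the species (log2 fold change 0.43, SE 0.14, adjusted p = 0.0291), a call lost with equal totals (0.13, adjusted p = 0.503) and without P. vachelli library 2 (adjusted p = 0.115) or P. fulvidraco library 1 (0.0642), 2 (0.0502) or 3 (0.0798). It was not called for the hybrid against P. vachelli (-0.36, adjusted p = 0.0759), but passed without hybrid library 3 (adjusted p = 0.0175). It was 1.48 ± 0.164 times ipu-miR-24_1ss23GT in P. vachelli, 1.59 ± 0.0336 times in hybrids and 1.39 ± 0.0614 times in P. fulvidraco. It amounted to 44.0% ± 2.76 of miR-27b in P. vachelli, below 56.1% ± 5.49 in hybrids and 54.7% ± 1.77 in P. fulvidraco. These miR-23b ratios were not tested.

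The profile most like each member among 268 tested sequences of other families was found by the root mean square difference of log2 values, each centred on its mean over the 9 libraries. For tni-miR-27e_R-1_1ss19AT the nearest were ssa-miR-126-3p_1ss18AG (difference 0.123), dre-miR-126b-3p_R+1 (0.179) and ssa-miR-92b-3p (0.193), against a median of 0.737 over all. For every member the nearest profiles lie below such a median by construction, so it gives only the scale of the differences. ssa-miR-126-3p_1ss18AG averaged 1342 ± 167 in P. vachelli, 664 ± 56.9 in hybrids and 548 ± 26.3 in P. fulvidraco. For dre-miR-27b-3p_R-1 they were tgu-miR-139-5p (0.104), pma-miR-199b-3p_L+2R-1 (0.111) and ssa-miR-126-3p (0.118), against a median of 0.533. tgu-miR-139-5p averaged 2803 ± 149, 1769 ± 212 and 1500.4 ± 137. miR-126 is the defining microRNA of endothelial cells, and miR-199 is among the smooth muscle and fibroblast markers used below. Which cells these likenesses come from was not tested.

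ipu-miR-24_1ss23GT lay nearest to dre-miR-30e-3p (0.134), xtr-miR-429 (0.142) and chi-miR-140-5p (0.152), against a median of 0.49. ipu-mir-24-3-p5 lay nearest to ssa-miR-15c-2-3p_2ss2GA9CA (0.179), ssa-miR-192a-3p_1ss11AC (0.189) and pma-miR-181a-3p (0.224), against a median of 0.521. The first of these is itself low, with means of 30.5 ± 7.84 for P. vachelli and 19.8 ± 4.60 for P. fulvidraco. These rankings left out the miR-23, miR-24 and miR-27 families. Nearer still were pma-miR-23b_R-1 to ipu-miR-24_1ss23GT (0.117), and dre-miR-27b-5p_R-1 (0.0923) and cgr-miR-27a-3p_R+1_1ss19CT (0.101) to dre-miR-27b-3p_R-1. No relative was as near to tni-miR-27e_R-1_1ss19AT (0.306 at best, dre-miR-27b-3p_R-1) or to ipu-mir-24-3-p5 (0.26 at best, pma-miR-23b_R-1).

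**Figure D4:**
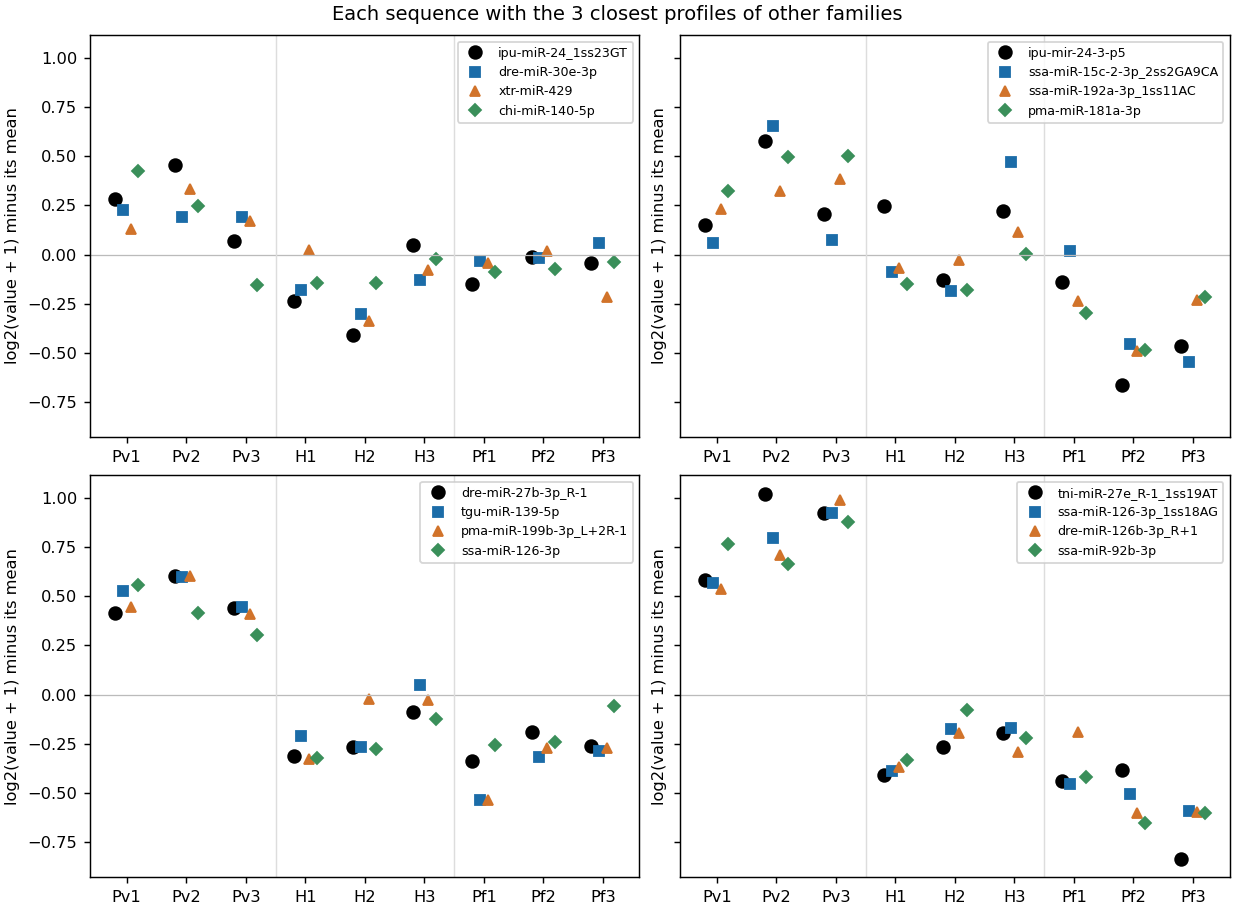
Centred log2(value + 1) (y axis) of each member (black circles) and its 3 nearest profiles of other families, in the 9 libraries (x axis; Pv, P. vachelli; H, hybrid; Pf, P. fulvidraco). Points are single libraries. The miR-126 sequences lie close to tni-miR-27e_R-1_1ss19AT, at root mean square differences of 0.123 and 0.179, and the spread around ipu-mir-24-3-p5 is wider, from 0.179 to 0.224.

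MicroRNAs that mark cell types also differed between the lines, and in bulk liver fewer cells of a type and less RNA per cell cannot be told apart. The endothelial miR-126 sequences summed to 335528 to 396618 in P. vachelli, 217286 to 248850 in hybrids and 227326 to 258734 in P. fulvidraco. The P. vachelli libraries thus stood above the other 6, as they did for miR-27b and miR-27e. With the deposited scaling this was also so for the hepatocyte sum and the smooth muscle and fibroblast sum, given below. Over all sequences tested, 59.4% did not overlap between the species, and 46.8% did not between hybrid and P. vachelli. Of the 5 endothelial sequences tested 5 were called higher in P. vachelli than in P. fulvidraco, beside 30.9% of all sequences tested. In hybrids 4 were called lower than in P. vachelli, beside 19.4% of all. With equal totals these counts were 4 and 3, beside 18.6% and 9.32% of all. As a share of the library sum the endothelial sequences made up 4.39% to 5.27% in P. vachelli, 3.84% to 4.15% in hybrids and 3.76% to 4.14% in P. fulvidraco. The hepatocyte sum of miR-122 ran from 2287588 to 2787558, from 1763476 to 1884865 and from 1879990 to 2128864, and as a share of the sum the parental species overlapped (32.7% to 36.4% and 33.1% to 34.1%), with all hybrid libraries below both (30.9% to 31.4%). Smooth muscle and fibroblast sequences summed to 381872 to 427093, 301026 to 366360 and 293649 to 343293. Of these, 8 of 12 were called higher in P. vachelli than in P. fulvidraco (30.9% of all sequences tested). With equal totals 3 of 12 were called higher there (18.6% of all), and the shares of all 3 lines overlapped. The erythroid sum went the other way, from 37915 to 42304 in P. vachelli against 58720 to 97610 in hybrids and 78963 to 94637 in P. fulvidraco. Of its 8 tested sequences 5 were called lower in P. vachelli than in P. fulvidraco (20.5% of all sequences tested) and 2 higher (30.9% of all). The leukocyte sum of 12850 to 13982 in P. vachelli was below 14275 to 14946 in hybrids and 14301 to 15424 in P. fulvidraco. Of the 6 leukocyte sequences tested, 2 were called higher in hybrids than in P. vachelli (15.5% of all) and 0 lower. Between the species 2 were called lower in P. vachelli (20.5% of all) and 0 higher. The muscle sum, 444 to 485 in P. vachelli, was likewise below 810 to 1743 in hybrids and 925 to 1213 in P. fulvidraco. Its 6 tested sequences went both ways, with 3 called higher and 2 lower in hybrids than in P. vachelli (15.5% and 19.4% of all). Set against P. fulvidraco, the P. vachelli libraries had 2 of these 6 muscle sequences called higher (33.3%, close to the 30.9% found over all sequences). They had 3 called lower (50%, where the share over all sequences was 20.5%). The pancreas sum overlapped in all 3 lines. As shares of the sum the erythroid, leukocyte and muscle sequences kept this order, and the pancreas sequences of hybrids, at 0.163% to 0.3%, then lay above those of P. vachelli, at 0.0749% to 0.161%. No marker family was at 0 throughout. The part of these markers in the members' differences was not tested.

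The members were last set beside other families known from lipid and cholesterol metabolism. Of 41 tested sequences from 16 of the 21 families listed, 3 (7.32%) were called higher in hybrids than in P. vachelli and 7 (17.1%) lower, where 15.5% and 19.4% of all sequences tested were. Against P. fulvidraco 3 (7.32%) were higher and 3 (7.32%) lower, beside 12.9% and 6.47% of all. Against the mid-parent 1 (2.44%) was above and 4 (9.76%) below, beside 10.1% and 8.63% of all. Between the species 9 (22.0%) were higher and 9 (22.0%) lower in P. vachelli, beside 30.9% and 20.5% of all.

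Equal totals moved these counts in the comparisons that involve P. vachelli, as they did those of all sequences. Against P. fulvidraco the hybrid kept 3 higher and 3 lower. For the hybrid against P. vachelli they became 8 higher and 3 lower (19.5% and 7.32%, beside 31.5% and 9.32% of all). Against the mid-parent they became 6 above and 2 below (14.6% and 4.88%, beside 20.8% and 2.87% of all). Between the species they became 5 higher and 13 lower in P. vachelli (12.2% and 31.7%, beside 18.6% and 31.2% of all). With the deposited scaling the median log2 fold change of the 41 was -0.02 for the hybrid against P. vachelli and -0.04 between the species, beside -0.01 and -0.05 over all sequences. It was -0.16 for the hybrid against P. fulvidraco and -0.19 against the mid-parent, beside 0.06 and 0.06 over all.

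fru-miR-103, a regulator of insulin sensitivity in mice, had the order of miR-27b, at 36201 ± 1006 in P. vachelli, 23666 ± 650 in hybrids and 22384 ± 972 in P. fulvidraco. It was called lower in hybrids than in P. vachelli (log2 fold change -0.61, adjusted p = 0.000356; -0.27, adjusted p = 0.025 with equal totals). ssa-miR-144-3p_R+1, which represses the cholesterol exporter ABCA1 in mice and is also an erythroid marker, had the opposite order, at 1481 ± 328, 3327 ± 625 and 3858 ± 458, and its other arm ssa-miR-144-5p_R-1 followed it with 1301 ± 374, 3399 ± 871 and 4311 ± 862. dre-miR-34a, at 476 ± 95.3, 486 ± 60.8 and 219 ± 24.4, was called higher in hybrids than in P. fulvidraco (1.15, adjusted p = 0.00277), and ssa-miR-143-5p was too (0.70, adjusted p = 0.00899). hsa-miR-29b-2-5p_R+1_1ss18CT was called lower there (-0.94, adjusted p = 0.00961), a call lost without P. fulvidraco library 3 (adjusted p = 0.0522). dre-miR-26a-5p was below the mid-parent (-0.35, adjusted p = 0.00367; -0.15, adjusted p = 0.0494 with equal totals).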

How the data were processed

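Small RNAs of juvenile liver were sequenced in 9 libraries. Per the labels' protocols, total RNA was made into TruSeq small RNA libraries, read on an Illumina HiSeq instrument and filtered with ACGT101-miR. The deposited table holds, for each library and mature entry, a signal that its headers call normalized counts. How it was normalized, and with which genome build and reference set, is not given in the sources used here. Coordinates are therefore left out.

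Repeats of a sequence, which held the same values, were dropped (160 of 888 entries). Low values of sequences with 1 entry lay on steps, taken as 1 read: 86.9% to 93.8% fell within 0.1 of a whole read, but 66.7% to 79.8% over all entries, so no count test was used. The step was 0.898 to 1.19.

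Sequences with a value of 10 or more in 3 or more libraries were fitted with limma 3.58.1 (limma-trend, R 4.3.3) on log2(value + 1), all 9 libraries together, with a mean for each line, two-sided tests and a threshold of 0.05. Ratios were tested by exact permutation. The fit was tested on simulated data. Named sequences are the members, all other entries of the 3 families, the 3 nearest profiles of each member, the list members with the smallest p in a direction (2 for each comparison, of which the values of some are not printed) and marker sums. The members and lists were chosen with earlier results of these data known, and the lipid and marker lists rest on background knowledge. Correlations showed no pairing of libraries by replicate number: 1 of 9 correlated best with its own number, and correlations of deviations ran from -0.421 to 0.162. A pairing by design is neither stated nor denied in the sources used here. Alternatives covered scaling, pseudocount, filter, trend, a replicate block, pairs of lines fitted alone, all entries, sums by family and arm (added after seeing the data) and each library left out. Other steps used pandas 2.3.3, numpy 2.4.6 and matplotlib 3.10.9 under Python 3.11.15.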

Additional observations from a re-analysis of the deposited data

How the results depend on the processing

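The miR-27b and miR-27e calls between the species and for the hybrid against P. vachelli kept their direction and their side of the threshold under every alternative run. Log2 fold changes and adjusted p of the other calls were as follows. For ipu-miR-24_1ss23GT, hybrid against P. vachelli, the call was lost with equal totals (-0.12, adjusted p = 0.555), equal totals without the most abundant sequence (-0.19, 0.327), the replicate block (-0.47, 0.0724) and the 2 lines fitted alone (-0.47, 0.0572). ipu-mir-24-3-p5 turned sign there under the same scalings (0.14 and 0.0802). Its call between the species was lost with both equal-total scalings (0.44, adjusted p = 0.108, and 0.45, 0.0981). It was also lost when the miR-24 5′ arm was summed (0.34, 0.105), an alternative chosen after seeing the data. The miR-27b call against the mid-parent was lost with both (-0.14, 0.345, and -0.20, 0.161). At -0.33, it was also lost without a filter (0.0744), without the trend (0.0591) and with the replicate block (0.0559). Scaling by the median ratio over sequences, with factors of 0.971 to 1.02, kept these calls. They were -0.50 (0.024) for ipu-miR-24_1ss23GT in the hybrid against P. vachelli and 0.73 (0.0159) for ipu-mir-24-3-p5 between the species. For miR-27b against the mid-parent the call was -0.37 (0.0184). Against an arithmetic mid-parent, with no test, miR-27e moved to -0.61. Permuting within replicate numbers left the ratio differences between the species at -0.40, 0.65 and -0.41 (log2; arms of miR-24, miR-27e over miR-27b, miR-24 over miR-27b) and ended the calls (adjusted p = 0.139, 0.0833 and 0.0833), where the smallest unadjusted p is 0.0278. Whether the numbers pair libraries by design is not given in the sources used here. No other call of the members changed under the block, while that of pma-miR-23b_R-1 between the species was lost (adjusted p = 0.057).

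With single libraries left out, log2 fold changes ran from -0.60 to -0.36 for ipu-miR-24_1ss23GT in the hybrid against P. vachelli and from 0.25 to 0.44 between the species, from 0.60 to 0.88 for ipu-mir-24-3-p5 between the species, and from -0.40 to -0.29 for miR-27b against the mid-parent. For miR-27b in the hybrid against P. fulvidraco they ran from -0.0284 to 0.0846. The ratio differences between the species ran from -0.58 to -0.25 (arms of miR-24), 0.51 to 0.75 (miR-27e over miR-27b) and -0.45 to -0.33 (miR-24 over miR-27b). The cause of these changes was not tested. Depth limits ipu-mir-24-3-p5 most, at 52.0 reads in its lowest library.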
